A study of Mus musculus with 4 samples.

Results

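The genes described here are 10 markers and products of enteroendocrine cells, out of 55203 genes in the deposited tables of mouse intestinal tissue. They are the granule proteins chromogranin A (Chga) and chromogranin B (Chgb), the serotonin enzyme Tph1, the hormone genes Gcg, Pyy, Insl5, Sst, Cck and Sct, and the transcription factor gene Neurod1. The members were chosen by name, every row carrying 1 of these gene names was used, and the level of a gene was the sum of FPKM (fragments mapped to a transcript, scaled to its length and to the mapped fragments of the library) over its transcripts. All 10 were found, with 33 transcripts in all. The tissue came from adult male wild-type C57BL/6NTac mice of 8 to 12 weeks, kept free of specific pathogens. Group RVC (2 libraries) carried the label of processing with 4 mM ribonucleoside vanadyl complex, a ribonuclease inhibitor, and group fresh frozen (2 libraries) carried the label fresh frozen. A single protocol text, with an RVC rinse, stood for both groups, so what the frozen tissue went through is known from its label alone. Whole tissue was extracted, so endocrine cells were a small part of each sample, and it is not stated whether libraries of a group came from different mice. P-values then measure only the spread between these libraries, which may be technical. The tissue is labelled ileum and described in the protocol as distal colon, and marker levels for both segments are given with the hormones. The stated purpose was a bulk measure of expression beside MERFISH, an imaging method that counts transcripts in tissue sections. Each library listed between 14247 and 14573 genes at 1 FPKM or more.

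Enteroendocrine cells lie singly among the absorptive and goblet cells of the gut lining, store peptide hormones or serotonin in dense granules, and release them towards blood, nerves and neighbouring cells when nutrients or microbial products reach them. Chromogranins fill the granules, and proprotein convertases and carboxypeptidase E cut the prohormones stored there. The blend of hormones changes along the gut: Gip, Ghrl, Cck, Sct and Nts are known mainly from stomach and small intestine, whereas L cells of the colon are known for proglucagon (Gcg), peptide YY (Pyy) and insulin-like peptide 5 (Insl5). Serotonin cells and somatostatin cells occur along the whole length.

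Upstream sequences of 5 members are shown because their genes span the levels described after them: the L cell hormones Pyy, Insl5 and Gcg, the proximal hormone Sct and the granule gene Chga. Each is the 250 bases before the start of the gene's most abundant transcript in the deposited tables, read from the GRCm39 genome, 5′ to 3′ on the strand of the gene. Capitals mark the E-box CANNTG, the site class of basic helix-loop-helix factors such as the product of Neurod1, the TATA box TATAAA, and TGACG, the first letters of the cAMP response element TGACGTCA, each searched on both strands. The Insl5 window includes the start of its second, shorter transcript, at position 102884039, so part of the window lies within that transcript.

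Pyy, chr11:101998659-101998908, minus strand: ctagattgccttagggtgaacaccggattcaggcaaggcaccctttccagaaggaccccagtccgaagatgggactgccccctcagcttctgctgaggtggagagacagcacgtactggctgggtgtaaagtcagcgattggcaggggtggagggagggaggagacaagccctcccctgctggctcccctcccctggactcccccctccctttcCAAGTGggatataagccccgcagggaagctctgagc
Insl5, chr4:102883935-102884184, minus strand: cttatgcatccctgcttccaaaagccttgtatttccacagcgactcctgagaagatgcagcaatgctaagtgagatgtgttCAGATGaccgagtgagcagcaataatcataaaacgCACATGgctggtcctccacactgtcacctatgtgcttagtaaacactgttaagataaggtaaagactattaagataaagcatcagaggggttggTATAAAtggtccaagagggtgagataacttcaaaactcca
Gcg, chr2:62313995-62314244, minus strand: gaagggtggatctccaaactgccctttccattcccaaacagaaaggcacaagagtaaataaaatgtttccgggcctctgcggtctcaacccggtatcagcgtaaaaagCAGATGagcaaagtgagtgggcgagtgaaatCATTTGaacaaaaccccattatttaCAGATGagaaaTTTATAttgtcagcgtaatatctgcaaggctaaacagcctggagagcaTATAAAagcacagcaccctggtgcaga
Sct, chr7:140859045-140859294, minus strand: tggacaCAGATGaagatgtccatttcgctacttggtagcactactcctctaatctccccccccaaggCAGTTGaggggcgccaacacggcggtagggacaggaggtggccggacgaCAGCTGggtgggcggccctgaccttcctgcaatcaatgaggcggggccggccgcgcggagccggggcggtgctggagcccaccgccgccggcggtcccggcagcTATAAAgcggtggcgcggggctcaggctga
Chga, chr12:102520978-102521227, plus strand: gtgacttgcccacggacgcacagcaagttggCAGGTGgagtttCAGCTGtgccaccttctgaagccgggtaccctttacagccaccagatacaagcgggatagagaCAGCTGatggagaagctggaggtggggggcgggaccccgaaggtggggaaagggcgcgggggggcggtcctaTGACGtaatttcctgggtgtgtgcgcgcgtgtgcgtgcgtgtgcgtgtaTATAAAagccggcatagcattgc

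An E-box was present in the windows of 8 of the 10 genes, all but Cck and Tph1, against 59.26% of 13709 windows of the same length before the genes tested further on. The Cck and Tph1 windows lie within the span of other transcripts of these genes, which start further upstream, at positions 121324760 and 46321961. The bases before those starts were not searched. TATAAA was present for 4 of the 10 genes (Insl5, Gcg, Sct and Chga), against 8.899% of all windows. TGACG was present for 2 (Chga and Tph1), against 24.2%, and the whole TGACGTCA, which contains it, for 0, against 2.4%. In Gcg the 3 E-boxes began 142, 111 and 86 bases before the start, and in Insl5 the 2 E-boxes began 169 and 134 bases before it. The TATAAA of Sct began 30 bases before the start and that of Chga 23 bases before it. A match of letters, or its absence, describes the window only, and the search did not show whether any factor binds there. Bases after the start of each transcript were not searched.

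Pyy and Insl5, hormone genes of the distal gut, were the most abundant members by mean level. Pyy, whose peptide slows gut transit and lowers appetite (ENSMUSG00000017311, GRCm39 chr11:101997502-101998658), measured 136.3 and 111.6 FPKM in the RVC libraries against 134.1 and 133.3 FPKM in the fresh-frozen ones, here as elsewhere with sample 1 before sample 2. Its level was above that of 96.5% of the 13771 genes compared below, and 3 of the 4 libraries lay within a few FPKM of each other, with RVC 2 lower. Insl5, a relaxin-family peptide of colonic L cells (ENSMUSG00000066090, GRCm39 chr4:102875069-102884039), measured 78.7 and 64.6 FPKM in RVC and 84.0 and 141.9 FPKM in fresh frozen. The groups did not overlap, and fresh frozen 2 stood apart from the other 3 libraries. Gcg, whose prohormone is cut to glucagon-like peptides in L cells (ENSMUSG00000000394, GRCm39 chr2:62304874-62313994), measured 6.76 and 7.70 FPKM in RVC and 8.80 and 17.4 FPKM in fresh frozen, again with fresh frozen 2 the highest. Pyy and Insl5 together with Gcg summed to 231 ± 45.1 FPKM (SD, n = 4).

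Within the L cell hormones the proportions were alike in 3 libraries and different in fresh frozen 2. The ratio of Insl5 to Pyy FPKM was 0.577 and 0.579 in the RVC libraries against 0.626 and 1.07 in the fresh-frozen ones. The ratio of Gcg to Pyy FPKM was 0.0496, 0.0691, 0.0656 and 0.130 in the same order. Of these 4 libraries, fresh frozen 2 was the single one with Insl5 above Pyy, and Pyy itself was no higher there than in fresh frozen 1. Genes of other cells also departed in fresh frozen 2, in both directions. The goblet gene Muc2 was highest there, at 176 and 143 FPKM in RVC and 139 and 302 FPKM in fresh frozen. The goblet markers did not move together: Agr2 was also highest there (741 FPKM), and Tff3 was lowest there (2457 FPKM). The rest of the goblet list lay within the range of the other libraries. The keratin gene Krt8 was lowest there, at 1483 and 1463 FPKM in RVC and 1613 and 1178 FPKM in fresh frozen. Fresh frozen 2 was also the deepest library by the ratio of coverage to FPKM, and the part of depth in the hormone ratios was not tested.

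**Figure D1:**
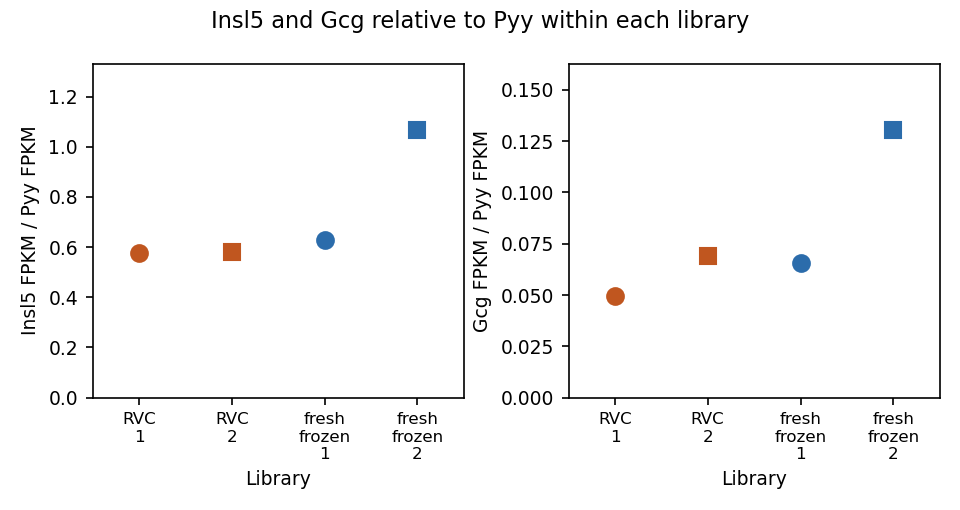
FPKM of Insl5 (left) and of Gcg (right) divided by FPKM of Pyy in each of the 4 libraries, on linear axes from 0; each point is 1 library, RVC in orange and fresh frozen in blue. Fresh frozen 2 stands at 1.07 for Insl5 and 0.130 for Gcg, above the other 3 libraries in both panels.

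Hormone genes of the proximal list were low. Proximal here stands for stomach and small intestine, the ileum included, which is why Nts is in the list. Sct, whose peptide drives bicarbonate secretion by the pancreas (ENSMUSG00000038580, GRCm39 chr7:140858243-140859046), was the most abundant of them, at 4.75 and 4.12 FPKM in RVC and 5.16 and 7.13 FPKM in fresh frozen. Cck, the gene of the gall bladder hormone of duodenal I cells (ENSMUSG00000032532, GRCm39 chr9:121318890-121324760), measured 0.333 and 0.505 FPKM in RVC and 0.132 and 0.488 FPKM in fresh frozen, so it stayed under 1 FPKM in all 4 libraries and its groups overlapped. Among proximal hormones outside the 10 genes, the ghrelin gene Ghrl measured 1.02 ± 0.340 FPKM and the neurotensin gene Nts 0.0486 ± 0.0156 FPKM (SD, n = 4). Gip, the incretin gene of duodenal K cells, was listed at 0 in 3 libraries and at 0.0856 FPKM in RVC 1, and the gastrin gene Gast was listed at 0 in all 4 libraries. The 6 proximal hormones summed to 6.75 ± 1.62 FPKM (SD, n = 4), most of it Sct.

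The distal sum exceeded the proximal sum 37.9-fold and 32.7-fold in the RVC libraries and 35.7-fold and 32.0-fold in the fresh-frozen ones. On the scale of log2(summed FPKM + 1) the excess was 4.91 ± 0.098 (SD, n = 4), and the libraries of the 2 groups interleaved. Without Cck and Sct in the proximal list the excess was 6.79, and without Nts it was 4.92. Pyy and Gcg also belong to L cells of the ileum, so this excess does not by itself tell colon from ileum. The label ileum was set beside genes that mark the segments but no endocrine cell. Of 9 colon genes in the tables all 9 had a mean of at least 1 FPKM. The carbonic anhydrase genes Car4 and Car1 and the chloride exchanger gene Slc26a3 were the most abundant. Their levels were 1803 ± 471, 1655 ± 90.2 and 1115 ± 182 FPKM in that order (SD, n = 4). Mettl7b and Car4 had the smallest p of the list between RVC and fresh frozen, a comparison described below. Their limma adjusted p-values were 0.191 and 0.192, and they do not test the segment. Of 14 ileum genes, 5 had a mean of at least 1 FPKM: Apob (23.7 ± 5.88 FPKM), Guca2b (4.02 ± 0.542), the bile acid carriers Fabp6 (3.37 ± 0.514) and Slc10a2 (2.73 ± 0.400), and Lyz1 (2.37 ± 0.111). Fgf15, Apoa4, Defa17 and Defa22 were listed at 0 in all 4 libraries, and the other 5 had means under 0.1 FPKM. The segment lists and the hormone lists were chosen with earlier results of these libraries known.

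**Figure D2:**
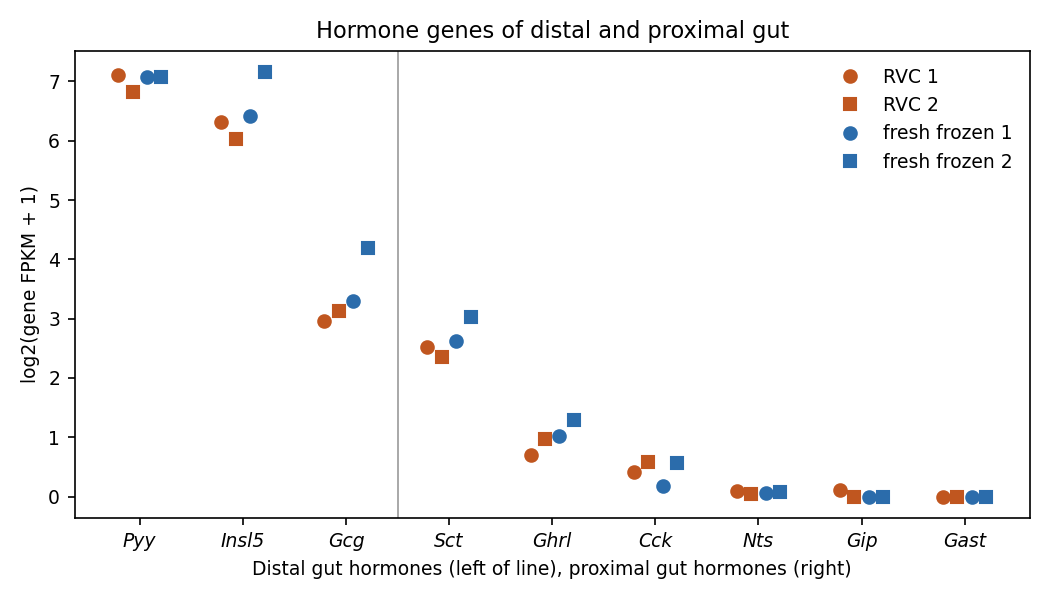
Level of each distal gut hormone gene (left of the line) and each proximal gut hormone gene (right) as log2(gene FPKM + 1), 1 point for each library, RVC in orange and fresh frozen in blue. Pyy and Insl5 lie far above Sct, the highest of the proximal genes, and Gast lies at 0 in all 4 libraries.

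Somatostatin (Sst), the inhibitory peptide of D cells that is also made by some enteric neurons (ENSMUSG00000004366, GRCm39 chr16:23708323-23709708), measured 6.94 and 8.58 FPKM in RVC and 4.26 and 6.26 FPKM in fresh frozen. Both RVC libraries were above both fresh-frozen libraries. The confidence bounds that the authors deposited for its single transcript ran from 5.57 to 8.31 FPKM in RVC 1 and from 5.10 to 7.41 FPKM in fresh frozen 2, so the bounds of these 2 libraries overlapped.

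The granule genes were next in level after Pyy and Insl5. Chgb (ENSMUSG00000027350, GRCm39 chr2:132623198-132636999) measured 14.7 and 14.6 FPKM in RVC and 23.5 and 23.7 FPKM in fresh frozen. The spread within each group was under 1 FPKM and the groups did not overlap, with deposited bounds of 13.8 to 15.6 and 13.7 to 15.5 FPKM in RVC and of 22.3 to 24.7 and 22.7 to 24.7 FPKM in fresh frozen. Chga (ENSMUSG00000021194, GRCm39 chr12:102521228-102531287) measured 12.4 and 9.43 FPKM in RVC and 13.2 and 15.2 FPKM in fresh frozen, where RVC 1 and fresh frozen 1 lay close together. Chgb exceeded Chga 1.19-fold and 1.55-fold in RVC and 1.78-fold and 1.56-fold in fresh frozen. Tph1, which encodes the rate-limiting enzyme of serotonin synthesis outside the brain (ENSMUSG00000040046, GRCm39 chr7:46294065-46321961), measured 4.86 and 4.56 FPKM in RVC and 7.06 and 7.74 FPKM in fresh frozen, without overlap. Tph2, the enzyme of neurons, was listed at 0 in all 4 libraries.

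Neurod1, a basic helix-loop-helix factor of endocrine progenitors and their progeny (ENSMUSG00000034701, GRCm39 chr2:79282865-79287095), measured 0.468 and 0.386 FPKM in RVC and 0.737 and 0.781 FPKM in fresh frozen. It stayed under 1 FPKM in every library, and its groups did not overlap. The deposited bounds of RVC 1 (0.300 to 0.636 FPKM) and fresh frozen 1 (0.517 to 0.957 FPKM) overlapped. Neurod1 overlaps Cerkl on the same strand and a long noncoding RNA gene on the other strand in the GENCODE vM39 annotation, so its reads may be shared. Chgb and Cck each overlap a predicted gene on the other strand in the same annotation, and without a stated strand setting the reads of such pairs cannot be told apart.

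By mean FPKM over 4 libraries the order was Pyy (129 ± 11.6), Insl5 (92.3 ± 34.1), Chgb (19.1 ± 5.17), Chga (12.6 ± 2.40), Gcg (10.2 ± 4.88), Sst (6.51 ± 1.79), Tph1 (6.06 ± 1.58), Sct (5.29 ± 1.30), Neurod1 (0.593 ± 0.195) and Cck (0.364 ± 0.173), each with its SD. Of the 9 neighbouring pairs in this order, 2 were apart, in the sense that the higher gene was higher in 4 libraries and the ranges did not overlap. These were Insl5 above Chgb, 4.83-fold, and Sct above Neurod1, 8.92-fold. The other 7 pairs overlapped, among them Pyy and Insl5, which changed places in fresh frozen 2. Without fresh frozen 2, 5 pairs were apart. Pyy made up 51.2% and 49.4% of the summed FPKM of the 10 genes in the RVC libraries, against 47.7% and 37.7% in the fresh-frozen ones. Insl5 made up 29.6% and 28.6% of it in RVC and 29.9% and 40.1% in fresh frozen, so these hormones exchanged the lead in fresh frozen 2.

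**Figure D3:**
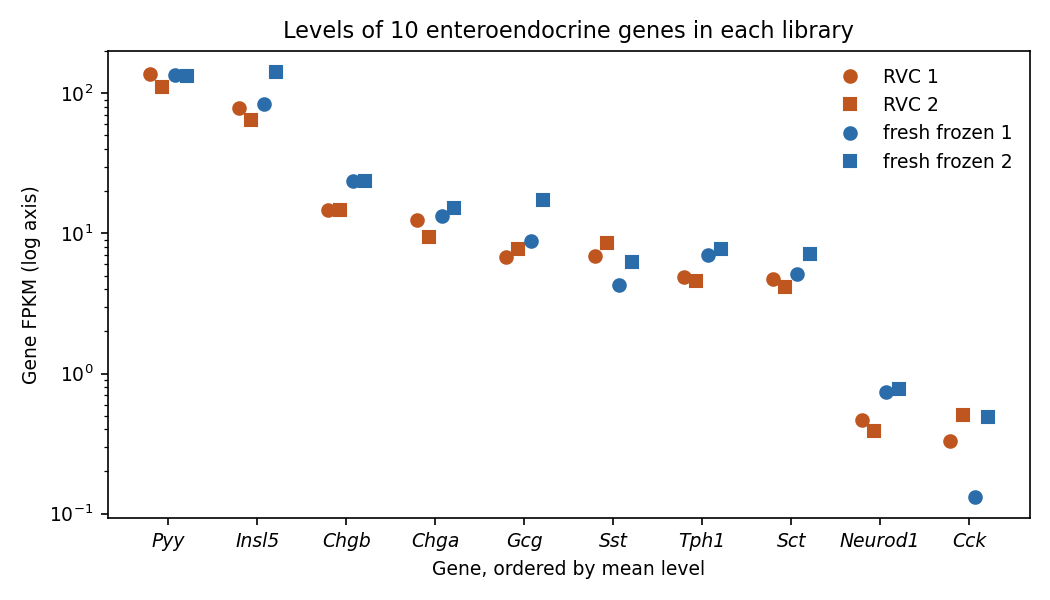
FPKM of each of the 10 genes in each library on a log axis, ordered by mean level; points are single libraries, RVC in orange and fresh frozen in blue, circles for sample 1 and squares for sample 2. Pyy and Insl5 stand above all others, and Neurod1 and Cck lie under 1 FPKM in 4 of 4 libraries.

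Cufflinks divides reads among the transcripts of a gene, and for most members a single transcript held most of them. The main transcript carried 97.9% ± 1.79 of Chga, 88.7% ± 1.49 of Gcg, 87.5% ± 1.81 of Insl5 and 81.4% ± 1.60 of Pyy (SD, n = 4), and Chgb, Sst and Neurod1 had a single transcript each. The first and second Insl5 transcripts, of 695 and 438 nt, kept nearly the same proportion in all 4 libraries, with 10.7% to 14.5% in the shorter. Tph1 was split more evenly: its 1762-nt transcript held 52.4% and 58.7% of the gene in RVC and 44.0% and 38.2% in fresh frozen. The 4562-nt Tph1 transcript measured 1.32 and 1.04 FPKM in RVC and 2.44 and 2.49 FPKM in fresh frozen, whereas the 1762-nt transcript measured 2.55 and 2.68 FPKM against 3.10 and 2.96 FPKM. Sct was spread over 4 overlapping transcripts whose proportions moved between libraries, from 25.6% to 72.3% for the most abundant, so its sum is used as its level. With limma as for genes below, 0 of 13 member transcripts tested had an adjusted p under 0.05, where 0.00415% of 24080 transcripts did, and for 3 of the 13 the unadjusted p was under 0.05, where 15.6% of all transcripts had such a p. The lowest limma adjusted p among them was 0.185, for Chgb.

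RVC and fresh-frozen libraries were compared gene by gene with limma on log2(scaled FPKM + 1), two-sided, with Benjamini-Hochberg adjustment over 13771 genes. The labels state no separate question for this comparison, and since every library bears a batch number of its own, batch cannot be told apart from group. Of the 10 members 8 were tested. Cck and Neurod1, with means under 1 FPKM, were below the filter, and for them only the levels above are given. Of the 8, 0 passed an adjusted p of 0.05, where 0.0363% of all genes did. By sign, 7 of the 8 were lower in RVC, where 49% of all genes were. At an unadjusted p under 0.05 there were 5, against 18.4% of all genes, with 4 lower in RVC (Chgb, Tph1, Gcg and Insl5; 8.99% of all genes) and 1 higher (Sst; 9.38% of all genes). The groups did not overlap for 6 members lower in RVC, against 26.6% of all genes, and for 1 higher, against 26.5%. The median log2 fold change of the 8 was -0.47, beside 0.0066 over all genes tested. In bulk tissue, fewer endocrine cells and less RNA per cell cannot be told apart.

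The difference with the smallest error was that of Chgb, at -0.65 (SE 0.11) on the log2 scale and a limma adjusted p of 0.118. Tph1 followed, at -0.55 (SE 0.13) and a limma adjusted p of 0.134. Both kept a log2 fold change near these values whichever library was left out, from -0.67 to -0.63 for Chgb and from -0.63 to -0.48 for Tph1. With only its most abundant transcript counted, Tph1 moved to -0.14 and Sct, by the same measure, to -0.81. Gcg and Insl5 had larger or similar differences with wider errors, -0.70 (SE 0.27) and -0.60 (SE 0.24), at limma adjusted p-values of 0.245 and 0.255. Their size rested on fresh frozen 2: without it they were -0.24 and -0.22, and without fresh frozen 1 they were -1.17 and -0.996, where Gcg passed at a limma adjusted p of 0.0353. Chga at -0.36 (SE 0.16) and Sct at -0.38 (SE 0.17) had limma adjusted p-values of 0.279 and 0.290. With a library left out they ranged from -0.54 (without RVC 1) to -0.18 (without RVC 2) for Chga, and from -0.60 (without fresh frozen 1) to -0.17 (without fresh frozen 2) for Sct. Pyy, the most abundant member, differed least, at -0.11 (SE 0.13) with a limma adjusted p of 0.661, and its sign turned to 0.035 without RVC 2 (-0.26 without RVC 1). Sst was the single tested member higher in RVC, at 0.50 (SE 0.19) and a limma adjusted p of 0.233, and it was 0.25 without fresh frozen 1 and 0.74 without fresh frozen 2. No such value of Sst passed the threshold.

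**Figure D4:**
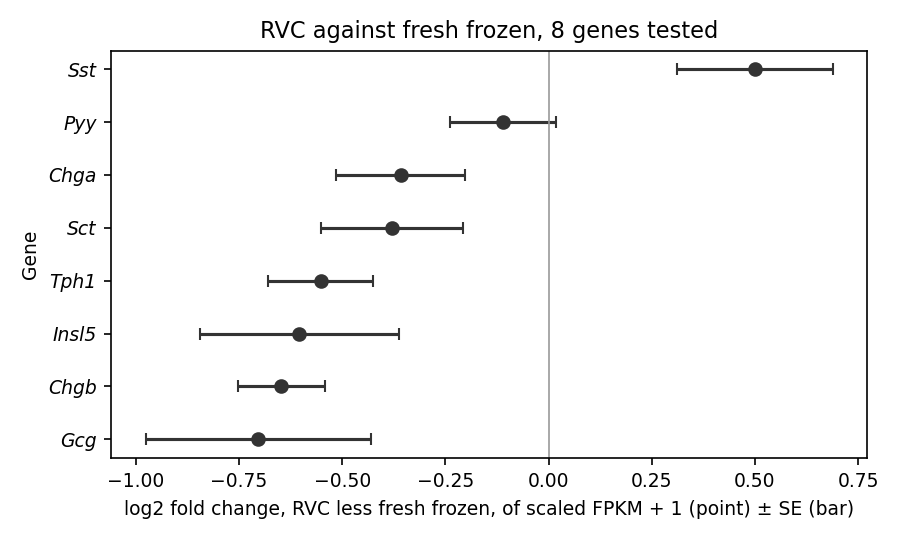
Log2 fold change, RVC less fresh frozen, of the 8 members tested, with 1 SE to each side from limma on log2(scaled FPKM + 1). Sst lies above 0, Pyy lies within its error of 0, and the other 6 lie between -0.70 and -0.36; none passed an adjusted p of 0.05.

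Marker levels of other cell types were compared in the same libraries. All 10 smooth muscle markers were higher in RVC at an unadjusted p under 0.05 (9.38% of all genes) and without overlap (26.5% of all genes). Their median log2 fold change was 0.77, and 0 of them passed the adjusted threshold. Their summed level was 1193 and 1757 FPKM in RVC and 747 and 798 FPKM in fresh frozen. Des, the intermediate filament of muscle, had the smallest p among them, at 0.88 (SE 0.14; limma adjusted p 0.114), followed by Cnn1 (limma adjusted p 0.119). Actg2 and Acta2, the muscle actins, were the most abundant with Cnn1, at 288 ± 161, 263 ± 126 and 152 ± 57.3 FPKM (SD, n = 4). Of 14 enteric neuron markers, 11 were tested, 10 with a fold change above 0, where 49% of all genes were below it. The 11 had a median of 0.26, with 0 past an unadjusted p of 0.05. Sums of the neuron markers were 78.6 and 68.2 FPKM in RVC and 53.1 and 68.7 FPKM in fresh frozen. Vip, Tac1 and Uchl1 were the most abundant of them, and Prph and Stmn2 had the smallest p, with limma adjusted p-values of 0.279 and 0.293. The 10 markers of the epithelium as a whole had a median of 0.095, with 0 past an unadjusted p of 0.05. Their sums were 5263 and 5039 FPKM in RVC and 5471 and 4211 FPKM in fresh frozen. The keratin genes Krt8 and Krt19 were the most abundant, at 1434 ± 183 and 1194 ± 208 FPKM (SD, n = 4), and Vil1 and Cldn7 had the smallest p, with limma adjusted p-values of 0.366 and 0.385. Epcam, the pan-epithelial adhesion molecule, measured 744 and 784 FPKM in RVC against 778 and 665 FPKM in fresh frozen, with overlap. The part of these cell types in the differences of Sst, Chgb and the other members was not tested.

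**Figure D5:**
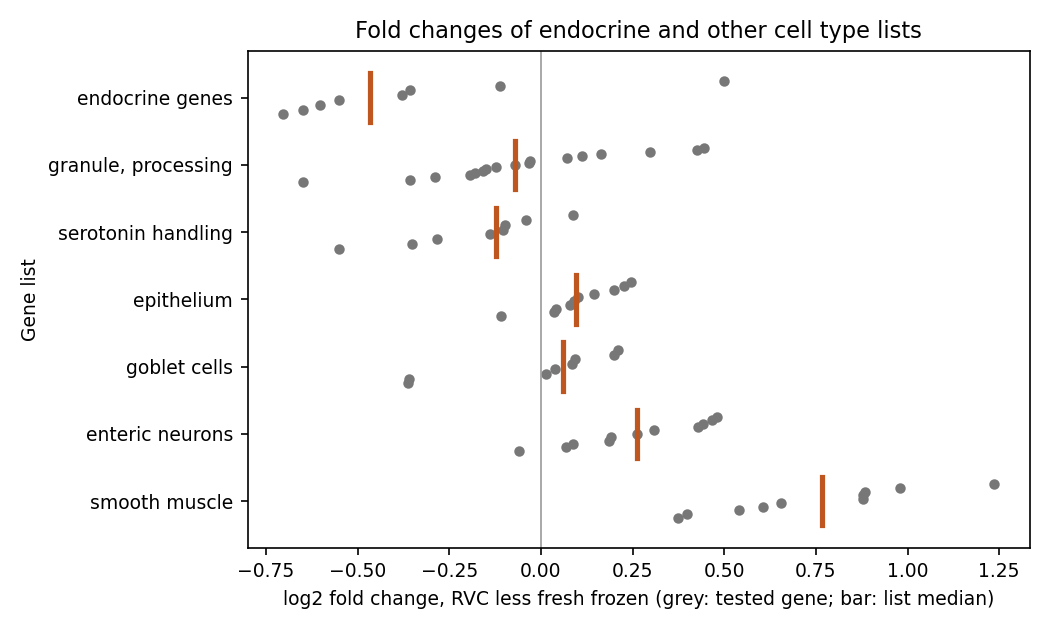
Log2 fold changes, RVC less fresh frozen, of the tested genes of 7 lists (grey points, spread vertically for view) with the list median (orange bar). The endocrine genes have a median of -0.47, the epithelium 0.095, the enteric neurons 0.26 and the smooth muscle 0.77.

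Mast cells also express Tph1, and their markers were low: of 11 markers only Kit, which pacemaker cells express as well, had a mean of at least 1 FPKM. The chymase gene Cma1 measured 0.568 and 0.529 FPKM in RVC and 1.21 and 0.358 FPKM in fresh frozen, a mean above that of Neurod1. The tryptase gene Tpsb2 measured 0.230 ± 0.115 FPKM, Mcpt1 0.204 ± 0.136 FPKM and Tpsab1 0.0093 ± 0.019 FPKM (SD, n = 4). Without overlap, Mcpt2 measured 0.124 and 0.0420 FPKM in RVC and 0.272 and 0.198 FPKM in fresh frozen. Mcpt4 was also lower in RVC, at 0.0391 and 0 FPKM against 0.0860 and 0.0941 FPKM. Cpa3 lay the other way, at 0.171 and 0.202 FPKM in RVC and 0.0315 and 0.104 FPKM in fresh frozen (mean 0.127 ± 0.0757). Fcer1a was listed at 0 in 3 libraries and at 0.133 FPKM in RVC 1. The summed level of the mast cell list, mostly Kit, was 5.61 and 5.58 FPKM in RVC and 6.49 and 8.76 FPKM in fresh frozen, and the part of mast cells in the Tph1 values was not tested. Goblet cells, the main other secretory cells of the colon, had a median of 0.061 over 8 tested markers. Agr2 was the 1 marker whose unadjusted p was under 0.05 (-0.36, limma adjusted p 0.244). Among all genes, 8.99% had such a p and were lower in RVC. Spdef had the next smallest p (0.20, limma adjusted p 0.493), and Zg16, Clca1 and Tff3 were the most abundant, at 8043 ± 655, 2916 ± 566 and 2722 ± 372 FPKM (SD, n = 4). Sums of the goblet list were 17366 and 13835 FPKM in RVC and 14218 and 16019 FPKM in fresh frozen.

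Other granule and prohormone genes lay to both sides of 0. Of 20 such genes, 2 of them members, 17 were tested, 11 with a fold change below 0 (49% of all genes) and 6 above it. The median was -0.072, and 0 of the 17 passed the adjusted threshold. At an unadjusted p under 0.05 there was 1 lower in RVC, Chgb (8.99% of all genes), and 1 higher, Cpe (9.38% of all genes). Cpe encodes carboxypeptidase E and is also made by neurons and other cells. Cpe measured 26.8 and 30.6 FPKM in RVC and 20.5 and 21.7 FPKM in fresh frozen, a difference of 0.43 on the log2 scale (SE 0.12; limma adjusted p 0.156). Pam, the amidating enzyme that many cells make, was the most abundant at 91.5 ± 7.46 FPKM (SD, n = 4). The convertase gene Pcsk1 measured 1.71 ± 0.231 FPKM and Pcsk2 0.787 ± 0.240 FPKM (SD, n = 4), and the secretogranin gene Scg2 measured 7.54 ± 0.645 FPKM. These levels are per length and can be set beside those of the hormones: Pyy stood above both convertases in every library.

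Among 9 genes of serotonin handling, 8 were tested, 7 of them with a fold change below 0 (49% of all genes). The median was -0.12, and 0 of the 8 passed the adjusted threshold. Tph1 and Maob had an unadjusted p under 0.05, both lower in RVC (8.99% of all genes). Maob, which degrades amines, stood at -0.35 (SE 0.15; limma adjusted p 0.270). Maoa, the monoamine oxidase with the strongest preference for serotonin, was the most abundant at 166 ± 23.9 FPKM, followed by Ddc, the decarboxylase after Tph1, at 22.1 ± 1.45 FPKM and the serotonin transporter gene Slc6a4 at 13.0 ± 1.71 FPKM (SD, n = 4). The vesicle transporter gene Slc18a1, typical of serotonin cells, measured 1.19 ± 0.163 FPKM.

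Endocrine transcription factors were low in these bulk libraries. Of 18 factors, Neurod1 included, 3 had a mean of at least 1 FPKM: Foxa1, Foxa2 and Rfx3, of which Foxa1 and Foxa2 are expressed through much of the epithelium. Foxa1 measured 13.4 ± 0.354 FPKM and Foxa2 7.61 ± 0.441 FPKM (SD, n = 4), and the median fold change of the 3 was -0.11 on the log2 scale, none of them at an unadjusted p under 0.05 by limma. Neurog3, the factor that starts endocrine fate, measured 0.388 ± 0.0674 FPKM, and Pax4 measured 0.0877 ± 0.0384 FPKM (SD, n = 4).

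Of 13 receptors and channels by which endocrine cells sense the lumen, 2 were tested, the long-chain fatty acid receptor gene Ffar4 at 5.07 ± 0.308 FPKM and the mechanical channel gene Piezo2 at 2.12 ± 0.510 FPKM (SD, n = 4), and 0 had an unadjusted p under 0.05. Ffar2, a receptor for short-chain fatty acids, measured 0.780 ± 0.208 FPKM, and Olfr78, an olfactory receptor gene known from colonic L cells, measured 0.688 ± 0.208 FPKM. The receptors for the members' products were mostly low as well: of 24 genes, a protease that degrades 2 of the peptides included, 9 were tested, 4 with a fold change below 0 and 5 above it, and 0 passed. The Insl5 receptor gene Rxfp4 measured 0.0748 ± 0.0446 FPKM against 92.3 FPKM of its ligand, and the receptor genes Glp1r and Sctr measured 0.0716 ± 0.0188 and 0.0420 ± 0.0183 FPKM. The most abundant receptors were Sstr1 for somatostatin, at 6.46 ± 1.42 FPKM, and Htr4 for serotonin, at 5.05 ± 0.805 FPKM (SD, n = 4). Dpp4, the protease that trims glucagon-like peptide and peptide YY, measured 6.51 and 5.73 FPKM in RVC and 10.3 and 11.0 FPKM in fresh frozen, a difference of -0.71 on the log2 scale (SE 0.13; limma adjusted p 0.129). Npy4r, a receptor of the pancreatic polypeptide family, stood at 0.43 (SE 0.16; limma adjusted p 0.228).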

How the data were processed

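RNA of 4 libraries was depleted of ribosomal RNA and sequenced as 150-bp pairs, per the labels' protocols. Per the submitters' processing notes, the authors used TopHat2 2.1.1, Cufflinks 2.2.1 and GRCm39. The annotation release and strand setting are not given in the sources used here. Per the file headers, the authors deposited FPKM of each transcript, its confidence bounds and its coverage, a signal of reads per base. Count models do not suit FPKM and were left out, and the number of fragments is unknown. By the ratio of coverage to FPKM, the libraries held 72.6% to 100% of the deepest one, fresh frozen 2, so low genes are measured less precisely in the others.

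Gene FPKM was the sum over transcripts. Levels are deposited FPKM. For tests, libraries were scaled by median ratio (factors 0.992 to 1.01), and log2(scaled FPKM + 1) was fitted with limma 3.58.1 in R 4.3.3 (mean-variance trend, no covariate), for genes whose scaled FPKM averaged at least 1, with a longest transcript of at least 300 nt and status OK throughout. The test was checked on simulated data whose spreads came from the fit itself, with 2-fold or 4-fold changes in the more abundant genes only. It recovered 87.8% of 2-fold and 99.6% of 4-fold changes, and 6.24% of its calls were false. Each simulation changed 200 genes, whereas 5 genes passed in the data, so these shares do not carry over to this comparison. Actg2, for 1, had a log2 fold change of 1.24 and did not pass (limma adjusted p 0.129). Low genes and differences as small as those of the tested members were not covered by the simulation. Alternatives were another pseudocount (0.1), scaling, filters, transcript choice, a block on sample number, no trend and each library left out. The named genes were all 10 members and, from each other list, those past the threshold, the 3 most abundant, the 2 of smallest p and up to 4 listed at 0. A few others were named after their values were seen. Members and lists were chosen with earlier results of these data known. Promoter windows were 250 bases, read from the GRCm39 genome with GENCODE vM39 strands. Joins used pandas 2.3.3 and figures matplotlib 3.10.9. Tubb3 and Prac1 of the lists were not analysed here.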

Additional observations from a re-analysis of the deposited data

How the results depend on the processing

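Each group held 2 libraries, and genes with a mean under 1 FPKM, Neurod1 and Cck among them, were not tested in the main comparison. Without a filter on low values Neurod1 had a log2 fold change of -0.30 and a limma adjusted p of 0.432. Of 128 combinations of a tested member with an alternative, 126 kept the direction and the side of the threshold. The exceptions were Gcg, which passed without fresh frozen 1, and Pyy, which ranged from -0.26 to 0.035 with a library left out, the latter without RVC 2.

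The count of members that passed was 0 under every alternative except the leaving out of libraries, where it ranged from 0 to 1. At an unadjusted p under 0.05 there were 3 members without a filter on low values, 2 without a length minimum, 3 with the most abundant transcript only and 2 to 6 with a library left out, against 5. The median of the members ranged from -0.61 to -0.23 with a library left out, the latter without fresh frozen 2. Over all genes, 5 passed. The count was 0 without a filter on low values, 2 at a mean of at least 5 FPKM, 0 with transcripts of at least 300 nt only, 2 with the most abundant transcript only, 0 without a trend, and 8 to 40 with a library left out, where a lone library is assumed to vary like the others.

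The excess of distal over proximal hormones was 5.09 with a pseudocount of 0.1, 5.57 with the most abundant transcript only, 6.79 without Cck and Sct, and 4.87 to 4.94 with a library left out. The number of neighbouring members apart in level ranged from 2 to 5 with a library left out, an alternative chosen after seeing the data, and no member transcript passed with any library left out.

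The sample numbers 1 and 2 occur in both groups. A replicate block on them gave 112 genes and 0 members that passed and 5 members at an unadjusted p under 0.05, and it changed no member's call. The deviations of same-numbered libraries from their group means had a Pearson correlation of -0.13 across 13771 genes, so nothing shows that the numbers pair the libraries. A replicate block with crossed numbers, chosen after seeing the data, gave 12 genes and 0 members that passed, and 7 members at an unadjusted p under 0.05.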

Other observations

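The pancreatic polypeptide gene Ppy, a neighbour of Pyy on chromosome 11 and best known from pancreatic islets, was listed at 47.8 and 28.8 FPKM in the RVC libraries and 29.9 and 39.4 FPKM in the fresh-frozen ones. It had been placed in a list of islet genes, and it was described after its values were seen. Ppy was thus more abundant than Chgb in each of the 4 libraries, at 36.5 ± 8.93 FPKM against 19.1 ± 5.17 (SD, n = 4). The other islet genes were at or near 0: Ins1 and Iapp were listed at 0 in all 4 libraries, Ins2 was listed at 0 in 3 of them and at 0.308 FPKM in fresh frozen 2, Mafa measured 0.019 ± 0.015 FPKM and Pdx1 0.258 ± 0.122 FPKM (SD, n = 4). The ratio of Ppy to Pyy was 0.351, 0.258, 0.223 and 0.296 in the order above. Ppy was not high in fresh frozen 2 in the way of Insl5 and Gcg, and its log2 fold change between RVC and fresh frozen was 0.12 (SE 0.24; limma adjusted p 0.821). Pyy and Ppy are related genes, and how many reads they share was not tested. Its main transcript, of 500 nt, held 68.2% ± 2.83 of the gene (SD, n = 4).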
